A study of Mus musculus with 8 samples.

Results

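The genes described here are the 3 D cyclins (Ccnd1, Ccnd2 and Ccnd3), the 2 kinases they bind (Cdk4 and Cdk6) and 5 CDK inhibitors (Cdkn1a, Cdkn1b, Cdkn1c, Cdkn2a and Cdkn2b). They were taken by symbol and make up 10 of the 45777 genes counted. All 10 were found, and all 10 passed the filter on low counts. RNA was sequenced from 8 cultures of mouse organoids, 3-dimensional cultures of epithelial cells, which the labels assign to liver cancer arising with metabolic dysfunction-associated steatohepatitis (MASH-related HCC) and to genotype WT. The parental group held 1 untreated library from each of 4 lines: SNU-6621, SNU-6622, SNU-6624, then SNU-6625, the order in which parental values are given below. The lenvatinib group held 1 library each of SNU-6624 and SNU-6625 treated with lenvatinib, an inhibitor of the VEGF and FGF receptor kinases. The resistant group held 1 library each of lenvatinib-resistant organoids of the same lines, and these carry the treatment label control. Pairs of values give SNU-6624 first. Dose, duration, the way in which resistance was obtained and the number of animals are not stated in the labels, so each line stands as 1 culture per group.

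D cyclins carry mitogen signals into the cell cycle. They bind CDK4 or CDK6, and the active pair phosphorylates the retinoblastoma protein, which then releases E2F factors that switch on genes for DNA replication. The INK4 inhibitors, p15 from Cdkn2b and p16 from Cdkn2a, bind CDK4 and CDK6 directly and keep the D cyclins away. The CIP/KIP inhibitors, p21 from Cdkn1a, p27 from Cdkn1b and p57 from Cdkn1c, bind cyclin-CDK pairs and block CDK2 most strongly. In liver, Ccnd1 is known as a cyclin induced when hepatocytes enter the cycle, and Cdkn1a as a target of p53. Cdkn2a also encodes ARF from an upstream start, a protein that stabilises p53.

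The sequences upstream of the genes on which the comparisons turned most are shown first, each as the 250 bases before a RefSeq start (GRCm38.p6, the build of the mm10 files), written 5′ to 3′ on the gene's strand. Capitals mark matches, on either strand, to 8 motifs with the letters TATAAA for the TATA box, GGGCGG for the GC box, TGACGTCA for CRE, TGANTCA for AP-1, CACGTG for the E-box, TTTNGCGC for E2F, TTTGAA for CHR and GTAAACA for FOXO, and to the p53 site. No matches overlap in these windows. Cdk6 is shown because its level changed in the lenvatinib libraries, Cdkn1a and Cdkn1b because they were furthest apart from parental in the resistant libraries, and Cdkn2b because it was high in the lenvatinib libraries.
Cdk6, chr5:3343643-3343892, plus strand: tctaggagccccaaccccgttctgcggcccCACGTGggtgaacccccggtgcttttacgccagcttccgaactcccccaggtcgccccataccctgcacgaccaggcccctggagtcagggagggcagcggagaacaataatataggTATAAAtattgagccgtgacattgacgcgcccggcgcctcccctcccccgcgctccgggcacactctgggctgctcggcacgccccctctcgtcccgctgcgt
Cdkn1a, upstream start, chr17:29090729-29090978, plus strand: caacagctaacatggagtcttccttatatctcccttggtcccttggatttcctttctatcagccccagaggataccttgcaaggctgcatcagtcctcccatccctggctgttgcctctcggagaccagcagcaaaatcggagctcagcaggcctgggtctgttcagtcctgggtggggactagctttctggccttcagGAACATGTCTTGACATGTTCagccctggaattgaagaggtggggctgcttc
Cdkn1a, downstream start, chr17:29093519-29093768, plus strand: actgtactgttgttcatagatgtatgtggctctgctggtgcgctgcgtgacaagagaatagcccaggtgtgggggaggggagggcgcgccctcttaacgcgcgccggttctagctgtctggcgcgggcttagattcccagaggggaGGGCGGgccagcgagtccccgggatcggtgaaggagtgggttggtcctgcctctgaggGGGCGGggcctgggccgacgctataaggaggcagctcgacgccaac
Cdkn1b, chr6:134920151-134920400, plus strand: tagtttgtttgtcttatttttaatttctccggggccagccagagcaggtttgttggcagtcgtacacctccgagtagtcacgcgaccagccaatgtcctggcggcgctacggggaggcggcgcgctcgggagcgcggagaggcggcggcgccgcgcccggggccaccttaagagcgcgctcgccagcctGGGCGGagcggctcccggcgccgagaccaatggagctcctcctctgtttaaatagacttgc
Cdkn2b, chr4:89311033-89311282, minus strand: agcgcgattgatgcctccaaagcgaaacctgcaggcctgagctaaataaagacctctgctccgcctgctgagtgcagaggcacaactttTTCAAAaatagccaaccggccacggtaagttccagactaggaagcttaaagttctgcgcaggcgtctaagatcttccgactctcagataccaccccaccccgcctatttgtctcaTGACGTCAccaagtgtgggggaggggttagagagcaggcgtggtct
The upstream start of Cdkn1a had 1 match to the p53 site, found by allowing 1 of its 20 letters to differ, a search added after the data were seen. Of 32851 promoters of the same length, 25 (0.0761%) held such a match. The downstream Cdkn1a start, 2790 bases away, had 2 GC boxes, and the Cdkn1b window had 1, a motif found in 32.7% of promoters. The Cdkn2b window held 1 CRE (1.55% of promoters) and 1 CHR (16.0%). The Cdk6 window held 1 TATA box (12.4%) and 1 E-box (6.02%). None of the 5 windows held a match to AP-1 (6.75% of promoters), E2F (1.13%) or FOXO (3.17%). Entries were found for 7 of the 10 genes. These matches describe the letters only.

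Depth was 49 to 61 M (megacounts) in total per library, and levels are given as CPM, counts per M of the library total. A count of 3, the limit that a count of 0 allows, was 0.0492 to 0.0612 CPM, and all 10 genes were above it in all 8 libraries. Against the label, hepatocyte markers were near absent: Alb, Cyp3a11 and Cps1 had 0 counts everywhere, and the 5 markers summed to at most 1.75 CPM. Of 6 biliary and epithelial markers, Krt19, Krt7, Epcam, Krt8 and Krt18 were at 10 CPM or more in every library. Their summed level moved with the groups, at 9039 to 12048 CPM in parental, 3441 to 4079 CPM in lenvatinib and 17125 to 17945 CPM in resistant libraries, and its part in the results below was not tested. Fibroblast markers (Col3a1, Dcn, Lum, Pdgfrb and Acta2) and the endothelial markers Cdh5, Kdr and Stab2 had 0 counts in every library. Leukocyte markers Ptprc, Adgre1 and Lyz2 were also at 0, and the list summed to 33.3 to 105 CPM in parental, 13.6 to 19.4 CPM in lenvatinib and 49.4 to 111 CPM in resistant libraries, with Cd14 alone at 10 CPM or more throughout. Resistant SNU-6625 stood apart in its division genes, and values are given for each line for this reason. In bulk RNA, fewer cells of a type and less RNA per cell cannot be told apart.

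In the treated organoids Cdk6 fell and Ccnd1 was lower in both lines, while Cdkn2b was higher in both. In the resistant organoids Ccnd1 was above the parental level of its own line and Cdk6 lay within the parental range, while Cdkn1b was lower and Cdkn1a higher in both lines than in parental. The tests set the groups of SNU-6624 and SNU-6625 against each other with line as a term (edgeR, 6 libraries), and a gene is called where its adjusted p is under 0.05. Against parental, lenvatinib called 1 of the 10 genes, Cdk6, which was lower, beside 5.78% of all 17038 genes tested, 4.08% lower and 1.7% higher. At an unadjusted p under 0.05 it held 3 of the 10 (Ccnd1, Cdk6 and Cdkn2b), beside 31.8% of all genes, and 7 of the 10 did not overlap between the groups, beside 72.9% of all genes. Resistant against parental called 0 of the 10 and 0.0% of all genes by edgeR. At an unadjusted p under 0.05, that comparison held 3 of the 10 (Cdkn1a, Cdkn1b and Cdkn2b), beside 15.9% of all genes, and DESeq2 called 2 of the 10 and 1085 genes in all. In 4 of the 10 the resistant and parental values did not overlap, beside 46.8% of all genes. Resistant against lenvatinib called 2 of the 10, Ccnd1 and Cdk6, both higher, beside 6.23% called in either direction among all genes, 4.14% higher and 2.08% lower. At an unadjusted p under 0.05 it held 5 of the 10 (Ccnd1, Cdk6, Cdkn1a, Cdkn1b and Cdkn2a), beside 30.4% of all genes, and 6 of the 10 did not overlap, beside 58.7%. The shares without overlap lie near those of all genes. The median log2 fold change of the 10 genes was -0.30, 0.10 and 0.23 in these comparisons in turn, against -0.01, -0.01 and 0.02 over all genes. Each comparison shares its libraries with another, so they are not independent of each other. Nothing in the labels says that libraries came from separate animals, so p-values measure the spread between these cultures only.

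**Figure D1:**
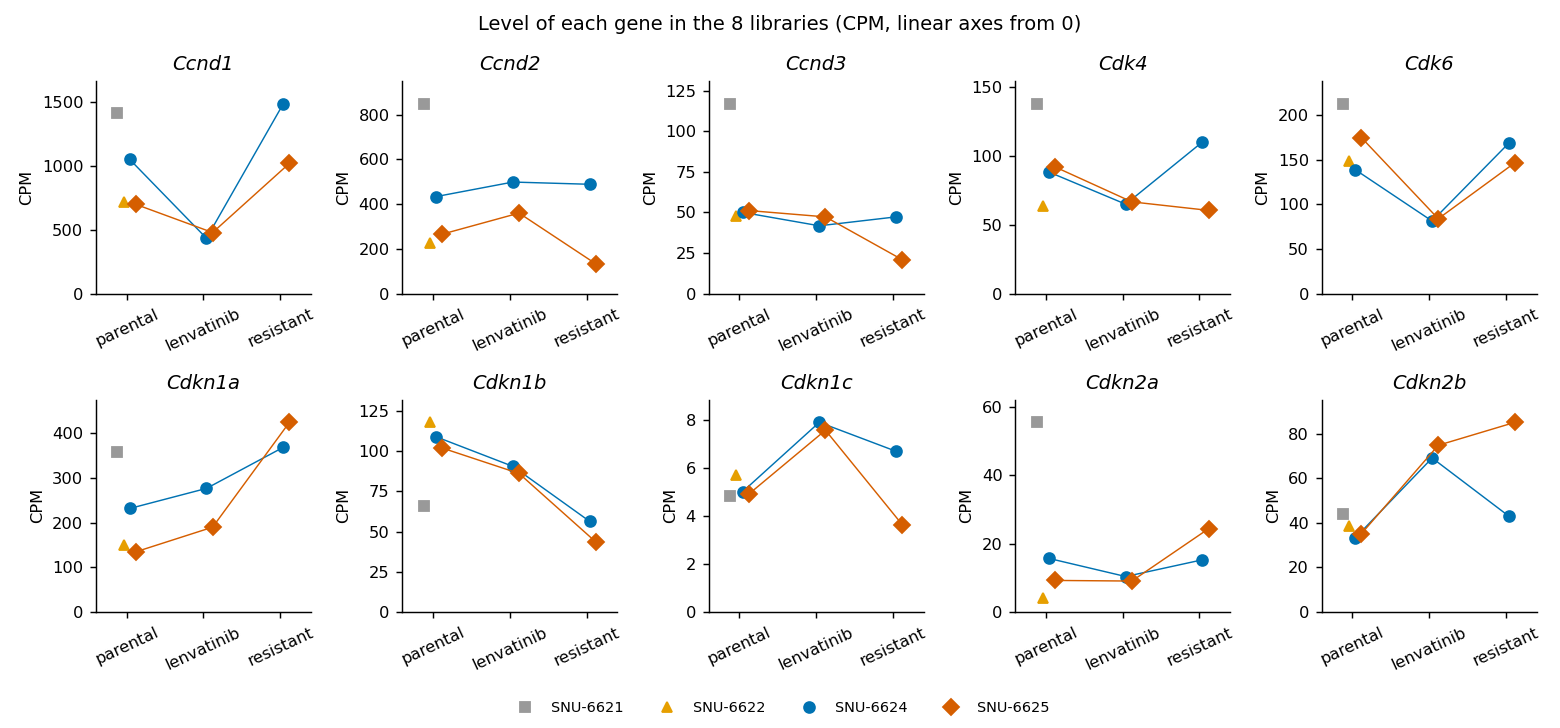
Level of each of the 10 genes in CPM (vertical axes, linear from 0) in parental, lenvatinib and resistant libraries; each point is 1 library, and lines join the libraries of SNU-6624 and of SNU-6625. Cdk6 lay at 81.4 and 84.0 CPM in the lenvatinib libraries, below all 6 others, and Cdkn1b lay at 56.4 and 43.6 CPM in the resistant libraries, also below all 6 others.

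Ccnd1 encodes cyclin D1 (gene 12443, chr7:144929931-144939831, minus strand, GRCm38.p6). It had 1414, 719, 1053 and 700.0 CPM in the 4 parental lines, 434 and 479 CPM under lenvatinib, and 1489 and 1022 CPM in resistance. Both lenvatinib values lay below all 4 parental values, and each resistant value lay above the parental value of its own line. Against parental the log2 fold change was -0.99 ± 0.27 (SE) under lenvatinib, which was not called (edgeR adjusted p = 0.0948), and 0.60 ± 0.27 in resistance (edgeR adjusted p = 0.352). Ccnd1 rose by 1.59 ± 0.27 from lenvatinib to resistant libraries (edgeR adjusted p = 0.0482, higher in 2 of 2 lines). Library-size scaling and a fit to all 8 libraries each ended this call (edgeR adjusted p = 0.0516 and 0.0536). So did no filter on low counts and only the 4 libraries compared (edgeR adjusted p = 0.0686 and 0.133). That call was lost without any 1 parental or lenvatinib library, with adjusted p between 0.155 and 0.366 in edgeR, and was kept without either resistant library. Over all alternatives the adjusted p ran from 1.42e-07 to 0.366. Within lines the lenvatinib library lay further below parental in SNU-6624 (log2 ratio -1.28) than in SNU-6625 (-0.55), a difference with no test. LTO1, a gene on the opposite strand that shares 818 exon bases with Ccnd1, had at most 1305 counts, against at least 24538 for Ccnd1.

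Ccnd2 encodes cyclin D2 (gene 12444, chr6:127125162-127152188, minus strand). It had 849, 225, 434 and 266 CPM in the parental lines in the same order, 499 and 360.2 CPM under lenvatinib, and 489 and 133 CPM in resistance. The lines kept their order, with SNU-6624 above SNU-6625 in each group, and the groups overlapped. Ccnd2 differed from parental by 0.25 ± 0.33 on the log2 scale under lenvatinib (edgeR adjusted p = 0.644) and -0.29 ± 0.34 in resistance (edgeR adjusted p = 0.67), so no difference beyond the spread was found. In resistance the lines went apart, with log2 ratios to their own parental library of 0.17 for SNU-6624 and -1.0 for SNU-6625. Resistant SNU-6625 was the lowest of all 8 libraries for Ccnd2.

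Ccnd3 encodes cyclin D3 (gene 12445, chr17:47505051-47599689, plus strand). Parental levels were 117, 48.0, 50.1 and 51.2 CPM, and SNU-6621 stood far above the other lines, which were close to each other. Under lenvatinib Ccnd3 had 41.8 and 47.3 CPM, and in resistance 47.3 and 20.9 CPM. Resistant SNU-6625 was again the lowest library, with a log2 ratio of -1.29 to its parental library against -0.08 in SNU-6624. The fitted differences were -0.26 ± 0.31 under lenvatinib (edgeR adjusted p = 0.597) and -0.56 ± 0.31 in resistance (edgeR adjusted p = 0.417). Bysl shares 361 exon bases with Ccnd3 on the opposite strand and had 949 to 1556 counts, close to the 1275 counts of Ccnd3 in resistant SNU-6625. The strand setting of the counting is not stated, so reads from the shared bases cannot be told apart.

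Cdk4 (gene 12567, chr10:127063535-127067288, plus strand) had 138, 64.0, 88.4 and 92.1 CPM in the parental lines, 65.0 and 66.7 CPM under lenvatinib, and 110.3 and 60.5 CPM in resistance. Within SNU-6624 and SNU-6625 both lenvatinib values were below both parental values, but parental SNU-6622 was as low as the treated libraries. Fitted log2 fold changes were -0.54 ± 0.22 under lenvatinib (edgeR adjusted p = 0.184) and -0.04 ± 0.22 in resistance (edgeR adjusted p = 0.931). The resistance value averages lines that went opposite ways, with log2 ratios of 0.32 for SNU-6624 and -0.61 for SNU-6625. Tspan31, a tetraspanin gene, shares 641 exon bases with Cdk4 on the opposite strand. It had 4315 and 3497 counts in the parental pair and 7389 and 6517 under lenvatinib, the opposite direction to Cdk4, with 5336 and 4514 and then 3675 and 3628 counts. Any reads of Tspan31 counted in Cdk4 were not measured.

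Cdk6 (gene 12571, chr5:3341004-3531008, plus strand), the kinase whose upstream bases are shown above, had 213, 149, 139 and 175 CPM in the parental lines, 81.4 and 84.0 CPM under lenvatinib, and 169 and 147 CPM in resistance. The lenvatinib values lay below all other libraries, and the resistant values lay among the parental ones. Cdk6 fell by 1.0 ± 0.17 (SE) on the log2 scale under lenvatinib (edgeR adjusted p = 0.04996, lower in 2 of 2 lines), a p just under the threshold. It rose by 1.1 ± 0.17 from lenvatinib to resistant libraries (edgeR adjusted p = 0.0432, higher in 2 of 2 lines). Resistant and parental libraries differed by 0.10 ± 0.17 (edgeR adjusted p = 0.761). Without any 1 parental or lenvatinib library the fall was still -0.83 to -1.16 but was not called (edgeR adjusted p = 0.233 to 0.416), nor was the rise (edgeR adjusted p = 0.127 to 0.347). Library-size scaling also ended both calls (edgeR adjusted p = 0.0585 and 0.0539), and over all alternatives the adjusted p ran from 0.000266 to 0.416 for the fall and from 4.21e-05 to 0.347 for the rise.

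**Figure D2:**
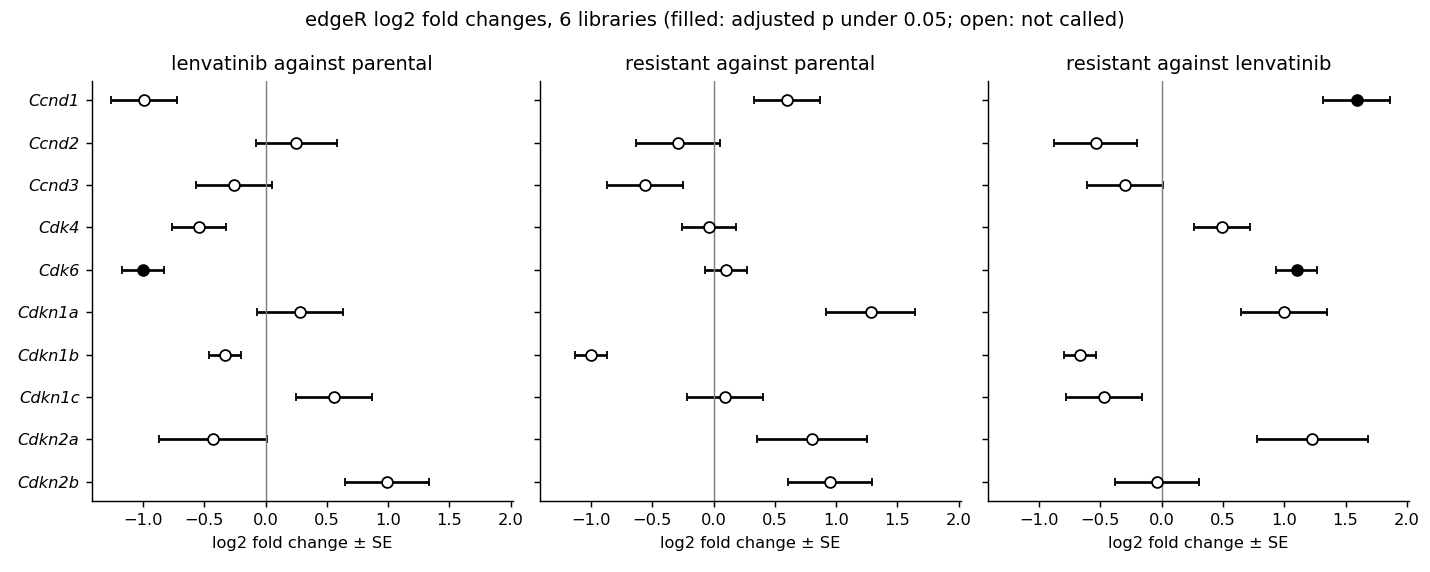
Log2 fold change of each gene (points) with its SE (bars) from edgeR over the 6 libraries of SNU-6624 and SNU-6625, for lenvatinib against parental, resistant against parental and resistant against lenvatinib; filled points are called at an adjusted p under 0.05. Cdk6 at -1.0 is the filled point of the first panel, and Ccnd1 at 1.59 and Cdk6 at 1.1 are those of the last.

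Cdkn1a, the gene of p21 (gene 12575, chr17:29090979-29100722, plus strand), had 358, 150.2, 232 and 135 CPM in the parental lines, 277 and 190.2 CPM under lenvatinib, and 369 and 425 CPM in resistance. Both resistant values lay above all 4 parental and both lenvatinib values. The lenvatinib values overlapped the parental ones, although each was above its own line. The log2 fold change was 0.28 ± 0.35 under lenvatinib (edgeR adjusted p = 0.61) and 1.28 ± 0.36 in resistance, the largest positive value among the 10 genes there (unadjusted p = 0.0187, edgeR adjusted p = 0.261, not called). The difference was 1.66 within SNU-6625 and 0.67 within SNU-6624 as log2 ratios of CPM. The counts do not separate transcripts from the 2 Cdkn1a starts shown above.

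Cdkn1b, the gene of p27 (gene 12576, chr6:134920401-134925525, plus strand), had 66.2, 118, 109 and 102 CPM in the parental lines, 90.6 and 86.2 CPM under lenvatinib, and 56.4 and 43.6 CPM in resistance. The lines were close within each group, and their levels were ordered parental, lenvatinib, resistant in both. Parental SNU-6621 was lower than the other parental lines but still above both resistant libraries. The log2 fold change was -0.33 ± 0.13 under lenvatinib (edgeR adjusted p = 0.169) and -1.0 ± 0.13 in resistance (unadjusted p = 0.00101). No gene of the 17038 was called in that comparison. Cdkn1b was at rank 49 by unadjusted p and shared the smallest adjusted p with other genes (edgeR adjusted p = 0.247). DESeq2 called it (adjusted p = 0.000427), as it did Cdkn1a, and over all alternatives the adjusted p of Cdkn1b ran from 0.000427 to 1.0. Between resistant and lenvatinib libraries the difference was -0.67 ± 0.13 (edgeR adjusted p = 0.0601).

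Cdkn1c, the imprinted gene of p57 (gene 12577, chr7:143458339-143461059, minus strand), was low in every library. It had 4.84, 5.74, 5.02 and 4.92 CPM in the parental lines, 7.92 and 7.59 CPM under lenvatinib, and 6.71 and 3.65 CPM in resistance. Both lenvatinib values were above all 6 others, and resistant SNU-6625 was the lowest. Against parental the log2 fold change was 0.56 ± 0.31 under lenvatinib (edgeR adjusted p = 0.277) and 0.09 ± 0.31 in resistance (edgeR adjusted p = 0.893). In resistance the lines again went opposite ways, with log2 ratios of 0.42 for SNU-6624 and -0.43 for SNU-6625. The parental lines were closest for this gene, at 5.13 ± 0.415 CPM (SD, n = 4).

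Cdkn2b, the gene of p15 (gene 12579, chr4:89306289-89311032, minus strand), had 44.1, 38.8, 33.3 and 35.2 CPM in the parental lines, 69.1 and 74.8 CPM under lenvatinib, and 43.0 and 85.1 CPM in resistance. The lenvatinib values were above all 4 parental values. In resistance SNU-6625 was the highest library of all 8, while SNU-6624 was within the parental range. The log2 fold change was 0.99 ± 0.34 under lenvatinib (unadjusted p = 0.0364, edgeR adjusted p = 0.134) and 0.95 ± 0.34 in resistance (unadjusted p = 0.0432, edgeR adjusted p = 0.304), neither called. Within lines the lenvatinib ratios were alike, at 1.05 for SNU-6624 and 1.09 for SNU-6625 on the log2 scale, and the resistance ratios were 0.37 and 1.28.

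Cdkn2a, the gene of p16 and ARF (gene 12578, chr4:89274473-89294619, minus strand), had 55.5, 4.13, 15.7 and 9.26 CPM in the parental lines, 10.4 and 9.08 CPM under lenvatinib, and 15.3 and 24.4 CPM in resistance. Its highest parental value was 13.4 times its lowest, the widest spread of the 10 genes. The log2 fold change was -0.43 ± 0.44 under lenvatinib (edgeR adjusted p = 0.543) and 0.80 ± 0.45 in resistance (edgeR adjusted p = 0.424). Resistant SNU-6625 was 1.40 above its parental library on the log2 scale, and resistant SNU-6624 was -0.04 from its own. The annotated starts for ARF and p16 lie 12.4 kb apart, and a count per gene does not separate them. Of 5 neighbours of Cdkn2a and Cdkn2b on chromosome 4, 3 passed the filter and none was called in any comparison. Mtap, a methionine salvage gene in that list, had 74.3 CPM in parental and 149.8 CPM in resistant SNU-6625, and 69.7 and 80.6 CPM in SNU-6624, and was not called (edgeR adjusted p = 0.36).

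**Figure D3:**
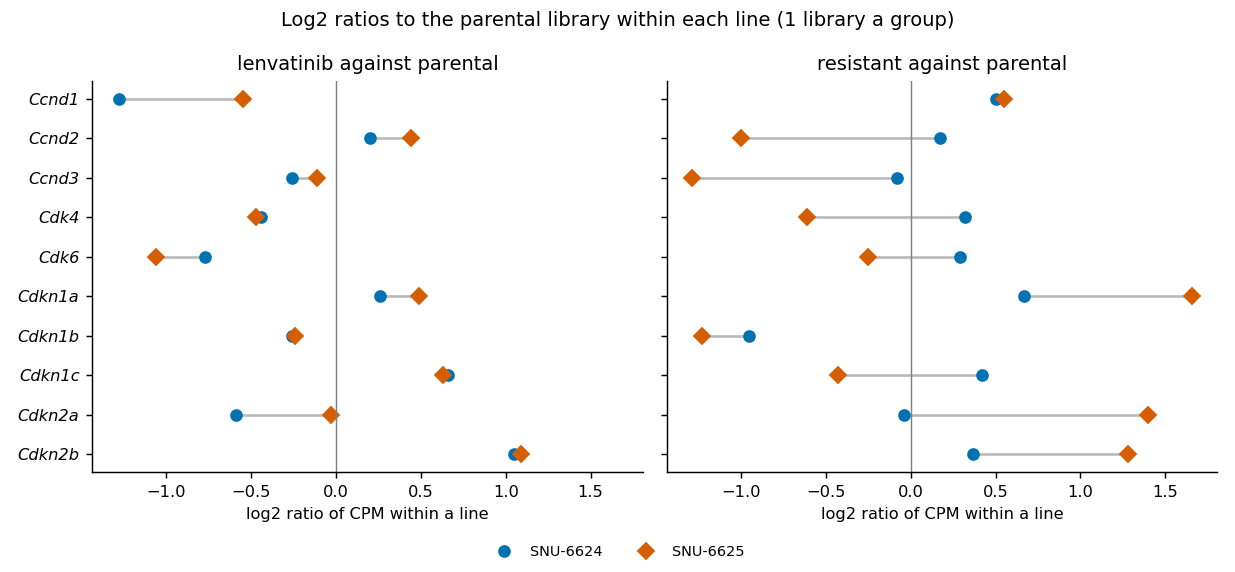
Log2 ratio of CPM between the lenvatinib or resistant library and the parental library of the same line (horizontal axes) for the 10 genes, with 1 point for SNU-6624 and 1 for SNU-6625 joined by a bar. The lines lie on the same side of 0 for all 10 genes under lenvatinib, with Cdkn2a of SNU-6625 at only -0.03. In resistance they lie on opposite sides for Ccnd2 (0.17 and -1.0), Cdk4 (0.32 and -0.61), Cdk6 (0.29 and -0.25), Cdkn1c (0.42 and -0.43) and Cdkn2a (-0.04 and 1.40). The ratios use library totals, and the median of all genes in resistance was 0.03 and -0.22.

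Both lines differed from parental in the same direction for all 10 genes under lenvatinib. How many of all genes did so, here or in resistance, was not counted. For Cdkn2a the log2 ratio was close to 0 in SNU-6625 (-0.03), with a counting interval of -0.21 to 0.16 that included 0. In resistance the lines shared a direction for 5 of the 10, namely Ccnd1, Ccnd3, Cdkn1a, Cdkn1b and Cdkn2b, although Ccnd3 was only -0.08 in SNU-6624. For Ccnd2, Ccnd3, Cdk4, Cdkn1b and Cdkn1c the resistant library of SNU-6625 was the lowest of all 8 libraries, and for Cdkn1a and Cdkn2b it was the highest. These ranks use library totals, and that library had the smallest TMM scaling factor, 0.8722 against 0.9778 to 1.0869. The Cdk4 rank rests on library totals, as 60.5 CPM lay close to 64.0 to 66.7 CPM in parental SNU-6622 and the lenvatinib libraries. The share of all genes with an extreme in that library was not counted. Without the resistant library of SNU-6624, log2 fold changes in resistance against parental were -0.86 for Ccnd2, -1.12 for Ccnd3 and -1.02 for Cdkn1b. They were 1.8 for Cdkn1a, 1.46 for Cdkn2a and 1.48 for Cdkn2b. Without that of SNU-6625 these 6 were at 0.19, -0.08, -0.98, 0.69, 0.05 and 0.34 in the same order. Cdkn1b was thus alike in both fits. For lenvatinib against parental, with only the 4 libraries compared fitted, edgeR called Ccnd1, Cdk4, Cdk6 and Cdkn1b lower and Cdkn2b higher. It called these 5 of the 10 beside 7942 of all 16444 genes tested in that fit. It called 0 of the 10 there without any 1 parental or lenvatinib library. The fits without a resistant library hold 1 of them, which is assumed to vary like the other groups.

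Set against each other per kb of exon, Ccnd1 was the main D cyclin transcript in every library. It made up 68.4%, 78.3%, 76.8% and 75.5% of the summed D cyclin level in the parental lines, 55.9% and 63.7% in the lenvatinib libraries, and 81.2% and 90.6% in the resistant ones. The lenvatinib shares were below, and the resistant shares above, all parental shares. Ccnd2 took 35.8% and 26.7% of the sum under lenvatinib, against 17.6% and 16.0% in the same parental lines and 14.9% and 6.56% in resistance. The sum itself was 367 and 248 CPM per kb in the parental libraries of the treated lines, 207 and 201 CPM per kb under lenvatinib, and 490.4 and 302 CPM per kb in resistance. Cdk4 was the main kinase transcript per kb, at 69.8% to 81.8% of the sum of Cdk4 and Cdk6 over the 8 libraries. These shares are descriptions and carry no test.

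Among the inhibitors Cdkn1a was the largest part per kb in each library, from 45.3% to 69.4% of the summed level. Cdkn1b took 16.0% and 20.8% in the parental libraries of the treated lines, 10.8% and 12.3% under lenvatinib, and 6.32% and 3.83% in resistance. Its share was lower in each step in both lines, but parental SNU-6621, at 6.38%, lay close to resistant SNU-6624. Cdkn2b took 16.1% and 23.5% in the same parental libraries, 26.9% and 34.9% under lenvatinib, and 15.8% and 24.5% in resistance. Summed inhibitor levels were 149 and 108 CPM per kb in the parental libraries of these lines, 185 and 154 under lenvatinib, and 196 and 250 in resistance. In both lines the sum was thus above that of the own parental library in treated and in resistant organoids. Parental SNU-6621, however, at 228 CPM per kb, lay above both lenvatinib sums and that of resistant SNU-6624.

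**Figure D4:**
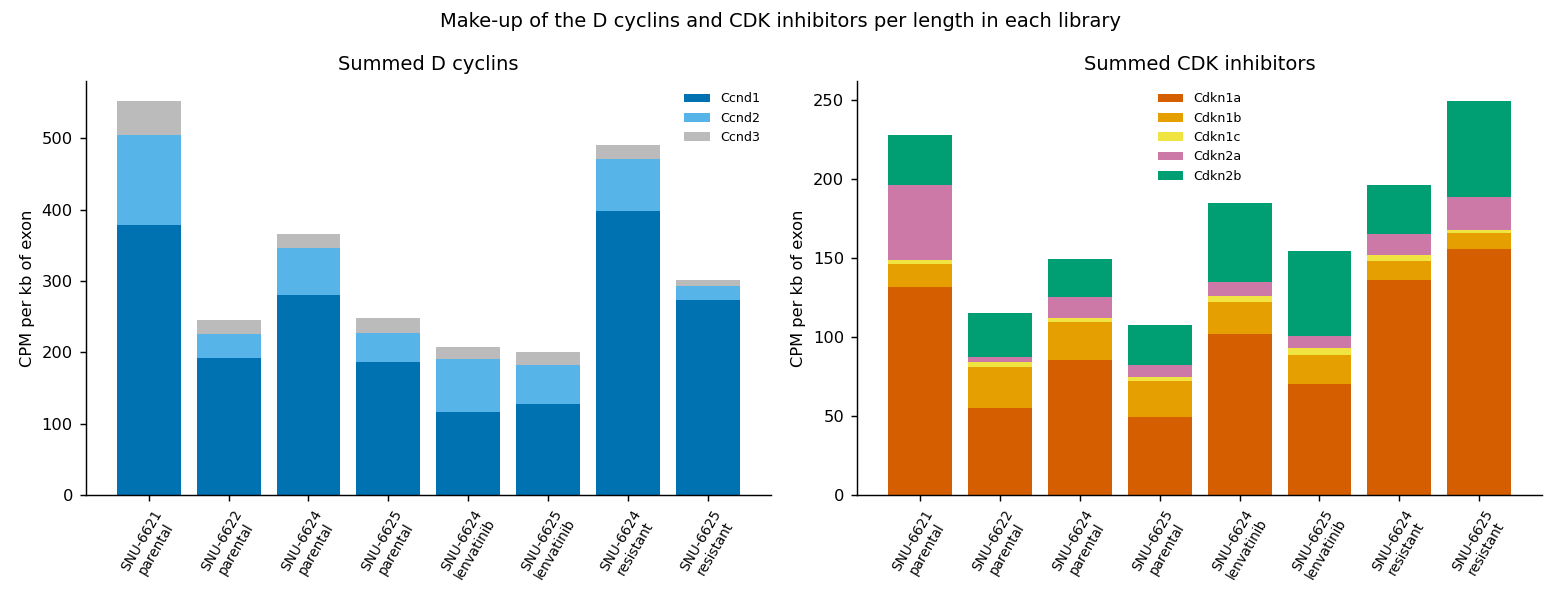
Summed level in CPM per kb of exon (vertical axes from 0) of the 3 D cyclins (left) and the 5 CDK inhibitors (right) in each of the 8 libraries, with a colour for each gene. Ccnd1 is the largest block of the left panel in every library, at 55.9% to 90.6%, and the Cdkn1b block of the right panel is smallest in resistant SNU-6625, at 3.83%.

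The 10 genes were then read beside 32 genes of DNA replication and mitosis. These summed to 641, 746, 1631 and 1765 CPM in the parental lines, 278 and 278 CPM under lenvatinib, and 823 and 80.7 CPM in resistance. Resistant SNU-6625 was thus the lowest library and resistant SNU-6624 lay within the parental range. Mki67, the gene of the Ki-67 division antigen, had 11437 counts in parental SNU-6625, 105 under lenvatinib and 17 in resistance, and 12767, 84 and 1970 counts in SNU-6624. By edgeR, 1 of the 32 was called lower under lenvatinib (Birc5, a mitotic and survival gene, at -2.85 ± 0.34, adjusted p = 0.0371) and none in the other comparisons, with list medians of -2.94 against parental under lenvatinib and -3.29 in resistance. Transcripts of division genes do not measure division itself.

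The 3 libraries with the lowest division sums did not share 1 pattern of the 10 genes. The lenvatinib libraries had the lowest Ccnd1 and Cdk6 levels of all 8. Resistant SNU-6625, with the lowest division sum, had 1022 CPM of Ccnd1, above its own parental 700.0 CPM, and 147 CPM of Cdk6, within the parental range. It had instead the lowest Ccnd2, Ccnd3, Cdkn1b and Cdkn1c and the highest Cdkn1a and Cdkn2b, and by library totals also the lowest Cdk4. Cdkn2b was the gene that was higher in these 3 libraries than in the other 5, at 69.1, 74.8 and 85.1 CPM against 33.3 to 44.1 CPM. Ccnd3 came close to the reverse, at 41.8, 47.3 and 20.9 CPM against 47.3 to 117 CPM. The share of all genes that separate these libraries in either way was not counted. Resistant SNU-6624 had a division sum and a Cdkn2b level within the parental range, with a Cdkn1a level of 369 CPM. Its division sum was nonetheless below that of its own parental library, 823 against 1631 CPM.

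A ratio of the summed inhibitors to the summed D cyclins, both per kb, was chosen after its values were seen. It was 0.41, 0.47, 0.41 and 0.44 in the parental lines, 0.89 and 0.77 under lenvatinib, and 0.40 and 0.83 in resistance, the last being SNU-6625. The 3 libraries with low division sums thus had the highest ratios. They still did when any 1 gene other than Ccnd1 was left out of the sums. Without Ccnd1 the lenvatinib ratios were 2.02 and 2.11, resistant SNU-6624 was at 2.12 and parental SNU-6622 at 2.17, while resistant SNU-6625 was at 8.83. The separation of the lenvatinib libraries thus rests on Ccnd1, and that of resistant SNU-6625 does not. Since the ratio was picked for this pattern it carries no test.

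**Figure D5:**
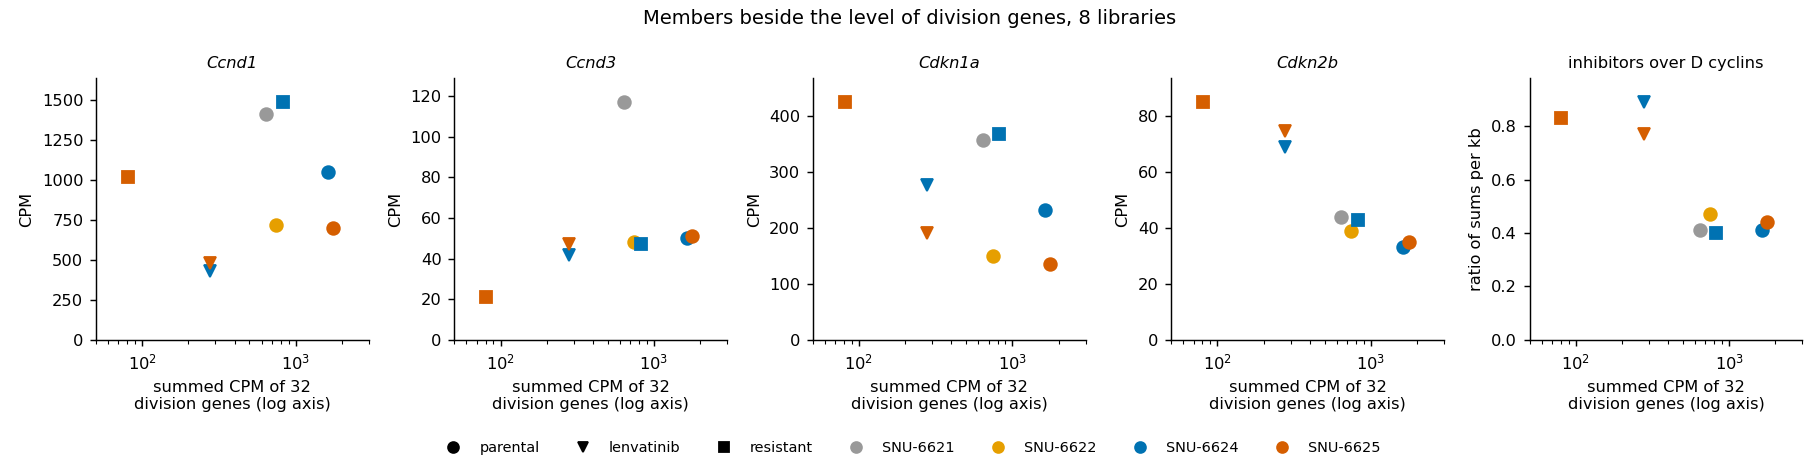
CPM of Ccnd1, Ccnd3, Cdkn1a and Cdkn2b, and the ratio of summed inhibitors to summed D cyclins per kb of exon (vertical axes from 0), against the summed CPM of 32 division genes (horizontal log axes) in the 8 libraries; shapes give the group and colours the line. Cdkn2b is at 69.1 to 85.1 CPM in the 3 libraries with division sums of 278 CPM or less and at 33.3 to 44.1 CPM in the other 5.

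The remaining genes of the pathway were read from lists. Of 6 other INK4 and assembly genes, none was called in any comparison, with medians of -0.67 under lenvatinib and -1.32 in resistance. Cdkn2c, the gene of the INK4 protein p18, had 24.3 and 25.2 CPM in the parental libraries of these lines, 19.8 and 16.7 CPM under lenvatinib, and 13.8 and 3.83 CPM in resistance. Cdkn2d, the gene of p19, had 14 and 16.9, 9.65 and 9.54, and 6.89 and 1.74 CPM in the same order. Both had their lowest value in resistant SNU-6625, where Cdkn2b was highest. Neither was called (edgeR adjusted p = 0.264 and 0.269 in resistance). Trib2 and Cables1 were lower under lenvatinib by -1.37 ± 0.27 and -1.73 ± 0.54 and were not called (edgeR adjusted p = 0.0605 and 0.119).

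Downstream of the kinases, 1 of 13 pocket protein and E2F genes was called under lenvatinib. E2f2, an activator of replication genes, had 307 and 397 counts in the parental pair, 8 and 7 under lenvatinib, and 132 and 202 in resistance. It fell by 5.62 ± 0.45 on the log2 scale under lenvatinib (edgeR adjusted p = 0.0312) and was higher by 4.58 ± 0.44 in resistant than in lenvatinib libraries (edgeR adjusted p = 0.0285), the direction taken by Ccnd1 and Cdk6. Rb1 itself had 59.1 and 58.6 CPM in parental, 71.5 and 65.5 CPM in lenvatinib and 40.9 and 36.0 CPM in resistant libraries, and was named after its values were seen. Of 15 later cyclin and CDK genes, Cdc25b, a phosphatase that activates CDK1, was called lower under lenvatinib (-1.73 ± 0.26, edgeR adjusted p = 0.0446), and no gene of the list was called in the other comparisons. Ccnb1 had 0 counts in resistant SNU-6625, a limit of 0.0492 CPM, against 2310 counts in its parental library.

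Turnover genes of the D cyclins and inhibitors gave 1 call among 15 genes tested. Fbxo31, an F-box gene known to target cyclin D1 for degradation, had 28.8 and 29.2 CPM in the parental pair, 78.8 and 104 CPM under lenvatinib, and 21.8 and 20.1 CPM in resistance. The lenvatinib values stood above all other libraries. Degradation concerns the protein, which was not measured, and any link to the level of the Ccnd1 transcript was not tested. Fbxo31 rose by 1.56 ± 0.16 under lenvatinib (edgeR adjusted p = 0.0356) and was lower by -1.94 ± 0.16 in resistant than in lenvatinib libraries (edgeR adjusted p = 0.0231). The median of the list was 0.19 under lenvatinib and 0.08 in resistance.

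Among 23 transcription regulators of the 10 genes, Tcf7l2, a Wnt pathway factor, was called lower under lenvatinib (-1.35 ± 0.22, edgeR adjusted p = 0.0467). Between resistant and lenvatinib libraries Klf4, a factor known to induce Cdkn1a, was called higher (1.82 ± 0.29, edgeR adjusted p = 0.0455). Foxo4, of a family known to induce Cdkn1b, was called lower there (-1.08 ± 0.15, edgeR adjusted p = 0.0383), with 60 and 56.2 CPM under lenvatinib and 25.8 and 23.0 CPM in resistance. Cdkn1b differed in the same direction in that comparison without being called. Under lenvatinib against parental the directions were opposite, at 0.43 ± 0.14 for Foxo4 and -0.33 ± 0.13 for Cdkn1b. Klf4 and Cdkn1a also went opposite ways there, at -1.22 ± 0.29 and 0.28 ± 0.35, and none of these was called. In resistance against parental each pair shared a direction, again without a call. Klf4 was at 0.60 ± 0.28 beside 1.28 ± 0.36 for Cdkn1a, and Foxo4 at -0.65 ± 0.15 beside -1.0 ± 0.13 for Cdkn1b. Any link between these genes was not tested. None of the 23 was called in resistance against parental, where Fosl1, an AP-1 gene, had 149 CPM in SNU-6625 against 12.5 CPM in its parental library.

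Of 20 p53 targets other than Cdkn1a, 1 was called higher (Rrm2b) and 1 lower (Eda2r) under lenvatinib, and none in resistance against parental, where the median was 0.86 against -0.01 over all genes. In resistance Plk2 and Btg2 were at 2.07 ± 0.40 and 1.36 ± 0.27 against parental, beside 1.28 for Cdkn1a, and were not called (edgeR adjusted p = 0.247 for both). Btg2, an antiproliferative gene, had 849.8 and 996 CPM in resistance and 429 and 341 CPM in the parental pair. Between resistant and lenvatinib libraries Eda2r and Tnfrsf10b, receptor genes, were called higher and Rrm2b, a subunit of ribonucleotide reductase, lower, at 1.89 ± 0.16, 1.20 ± 0.17 and -1.92 ± 0.20 (edgeR adjusted p = 0.0249, 0.0404 and 0.0314). The called targets thus differed in direction, while the list median between resistant and lenvatinib libraries was 0.98 against 0.02 over all genes. Within lines that median was 0.62 for SNU-6624 and 0.86 for SNU-6625. Of 20 senescence-associated genes 14 were tested. Lmnb1 and Igfbp3 were called lower under lenvatinib, none in resistance against parental, and Cxcl1, Igfbp3 and Ccl20 were called higher in resistant than in lenvatinib libraries. Of the 12 genes of the imprinted domain of Cdkn1c, 10 were tested and none was called in any comparison. Kcnq1ot1, the antisense transcript of that domain, was at 1.34 ± 0.33 under lenvatinib (edgeR adjusted p = 0.082), with overlapping genes on the other strand.

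For 9 of the 10 genes, Cdkn1c being left out with a mean under 10 CPM, the genes whose level followed theirs most closely over the 8 libraries were listed by Pearson correlation of log2(CPM + 1) among 9609 genes. The libraries share lines and groups, so these values describe the 8 libraries and carry no test. Ccnd1 was most like Fosb (0.984), Perp (0.97) and Chd9 (0.967), and Cdk6 was most like Vtcn1 (0.98), Zfp618 (0.979) and Tjp1 (0.974). For Cdkn1a the nearest were Stag1 (0.958), Cald1 (0.957) and Aen (0.946), the last from the p53 list. Cdkn2b was nearest to Cybc1 (0.996), Hsp90ab1 (0.984) and Sdc2 (0.981), of which Hsp90ab1, a chaperone for client kinases, stands in the assembly list. Cdkn2a was nearest to Nrp1 (0.969), Notch1 (0.962) and Enah (0.959). Among these 9 themselves, Ccnd1 and Cdk6 had a correlation of 0.838, Ccnd2 and Ccnd3 of 0.826, and Cdkn1a and Cdkn1b of -0.863.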

How the data were processed

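Raw read counts per gene were deposited by the authors, 1 file per library, per the file headers. HISAT2 2.1.0, Bowtie2 2.3.4.1, StringTie 2.1.3b, Trimmomatic 0.38, FastQC 0.11.7 and build mm10 are named in the submitters' processing notes. Libraries came from a stranded poly(A) kit, per the labels' protocols. The counting step and its strand setting are not stated there, which leaves genes that overlap on opposite strands uncertain.

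From these counts CPM was computed on library totals, 49 to 61 M. Reads carry no molecular identifiers as far as the labels state, so the 3-count limit covers counting error only. No 2 libraries were identical. The closest pair, the lenvatinib libraries, differed by a chi-square of 54.1 per gene. EdgeR 4.0.16 in R 4.3.3, with its quasi-likelihood F test, was fitted to the 6 libraries of the lines with all 3 groups (SNU-6624, SNU-6625), on group plus line, with TMM factors, and 17038 genes passed filterByExpr. P-values were adjusted over all of these by Benjamini-Hochberg. The SE is the absolute log2 fold change over the root of F. Residual degrees of freedom were 2, prior ones 2.53, and the biological coefficient of variation was 0.336. The labels place each of these lines in every group, hence the line term. Deviations of the same line from the group means correlated across genes at 0.59, 0.281 and 0.283. The steps were tested on simulated data.

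Exon length per kb came from GENCODE vM21, and positions came from RefSeq GRCm38.p6 (its primary assembly equals mm10), with 45679 gene identifiers matched. Alternatives were DESeq2 1.42.0, limma-voom (limma 3.58.1), other scalings, filters and sets of libraries. The 10 genes, the lists and the rule for named genes were chosen with earlier results of these data known. The rule took, per list and comparison, up to 4 called genes by p, or the 2 largest differences with at least 5 CPM where none was called, and, for the 9 of the 10 genes with a mean of at least 10 CPM (all but Cdkn1c), the 3 most correlated genes with such a mean. The text gives part of these.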

Additional observations from a re-analysis of the deposited data

Results flagged for a closer look

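Ccnd3 in parental SNU-6621, at 117 CPM, stood apart from the 48.0 to 51.2 CPM of the other 3 parental lines, by a gap test over 4 values that chance passes in about 1 in 20 groups.

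The lines went opposite ways in resistance against their own parental library for 5 of the 10 genes. In 4 of them both ratios lay away from 0 by more than their counting error, which does not cover scaling. The ratios use library totals, and the median over all genes tested was -0.22 in SNU-6625 and 0.03 in SNU-6624. Cdk6 at -0.25 in SNU-6625 thus lay close to the median of all genes there. How many of all genes went opposite ways was not counted. The log2 ratios in SNU-6625 and SNU-6624 were -1.0 and 0.17 for Ccnd2, -0.61 and 0.32 for Cdk4, -0.25 and 0.29 for Cdk6, and -0.43 and 0.42 for Cdkn1c. Cdkn2a was the fifth, at 1.40 and -0.04, and its counting interval in SNU-6624 (-0.17 to 0.10) included 0. With 1 library per line and group, the difference between the lines was not tested. The summed division genes were at 80.7 CPM in resistant SNU-6625 and 823 CPM in resistant SNU-6624, and their part in these differences was not tested.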

How the results depend on the processing

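The calls depend on the fit more than the directions do. Under lenvatinib against parental, 985 genes and 1 of the 10 were called, against 1053 and 1 without the replicate block (line), 651 and 0 with all 8 libraries, 7942 and 5 with only the 4 libraries compared, 3609 and 2 by DESeq2, 1697 genes by limma-voom, 174 and 0 without a filter, and 0 of the 10 under library-size or RLE scaling. In resistance against parental, 0 genes were called by edgeR with and without the block (2715 at an unadjusted p under 0.05 with it) and 0 by limma-voom (3170 unadjusted), against 1085 and 2 of the 10 by DESeq2. Between resistant and lenvatinib libraries, 1061 genes and 2 of the 10 were called, 1119 and 2 without the block, 234 and 0 with only the 4 libraries, 3510 and 5 by DESeq2, 324 and 0 without a filter and 1775 genes with at least 10 counts everywhere. All 8 libraries gave 0 of the 10 there and library-size scaling gave 1, which was Cdkn1b, lower. Ccnd1 and Cdk6 were not called under that scaling (edgeR adjusted p = 0.0516 and 0.0539). Cdk6 was the gene called under lenvatinib with and without the block, and Ccnd1 and Cdk6 were those between resistant and lenvatinib libraries. The block changed no other call among the 10, and moved Cdkn2b between resistant and lenvatinib libraries from -0.04 to 0.04.

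Library-size scaling moved the median of all genes from 0.02 to -0.14 between resistant and lenvatinib libraries, and the split of calls from 706 higher and 355 lower to 596 and 663. Under lenvatinib it moved the split from 289 and 696 to 427 and 556.

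Leaving out 1 library at a time gave 0 to 7798, 0 to 5819 and 0 to 6286 called genes in the 3 comparisons, and 0 to 6, 0 to 6 and 0 to 8 of the 10. The high counts came without resistant SNU-6624 (7798, 5819 and 6286) or resistant SNU-6625 (7769, 580 and 5867), and the 0s without a parental or lenvatinib library. Directions changed for some genes that were not called with all 6 libraries. Under lenvatinib these were Ccnd2 (-0.14 to 0.55), Ccnd3 (-0.61 to 0.0), Cdkn1a (-0.03 to 0.66) and Cdkn2a (-0.90 to 0.18). In resistance against parental these were Ccnd2 (-0.86 to 0.19), Cdk4 (-0.39 to 0.27), Cdk6 (-0.06 to 0.27) and Cdkn1c (-0.21 to 0.37), and between resistant and lenvatinib libraries Ccnd3 (-0.84 to 0.18) and Cdkn2b (-0.65 to 0.50). Cdkn2b was called both ways, higher without resistant SNU-6624 (edgeR adjusted p = 0.0284) and lower without resistant SNU-6625 (0.0168). Without resistant SNU-6624, Ccnd2 at -0.86 against parental and Ccnd3 at -0.84 against lenvatinib libraries were called lower (edgeR adjusted p = 0.011 and 0.00809). The cause was not tested. Depth was ample for the 10 genes, whose smallest count was 223. The fit rests on 2 lines per group.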
